A study of Mus musculus with 3 samples.

Results

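Marker-negative endosteal cells, sorted as ALCAM- Sca-1-, were measured on 1 of the 3 arrays of the series and are described here against the 2 marker-positive populations. Endosteal cells lie along the inner surface of bone. All 3 populations came from C57BL/6 mice: collagenase released cells from fragments of thigh and shin bone, and cells without CD45 (white blood cells), CD31 (vessel lining) and Ter119 (red cells and their late precursors) were sorted on the adhesion molecule ALCAM and the stem and progenitor cell antigen Sca-1. The comparison arrays hold ALCAM+ Sca-1- cells, called ALCAM+, and ALCAM- Sca-1+ cells, called Sca-1+. What all 3 groups share is therefore the strain, the tissue and the lack of the 3 depletion markers, and the marker-negative group is defined only by what its cells lacked. The age of the mice, and whether animals were pooled, are not given in the sources used here.

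Values are the deposited linear signals. Each gene stands for its brightest probe set by mean signal, and values were raised to a floor of 75.4, the median of all probe sets on the 3 arrays, before a ratio was taken. Genes above that floor on 1 array or more count as measured, 12643 of the 18193 named. It was counted as higher or lower if it differed at least 4-fold from both other arrays, so the fold given is against the nearer of them. A fold taken against the floor is a lower bound and is written as at least that size. With 1 array per population there was no test and no p-value, differences between arrays or sorts cannot be told apart from differences between populations, and both comparisons share the marker-negative array. The words higher and lower describe these 3 arrays.

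Red cells form in the marrow from progenitors that depend on the hormone erythropoietin. The transcription factors GATA1, KLF1 and TAL1 switch on the genes of the red cell membrane, of heme synthesis and, late, of the globins, while the precursors still divide. A dividing cell first copies its DNA, using the MCM helicase and the DNA polymerases, and then separates the copies on a spindle. In the growing skeleton, cartilage cells of the growth plate also divide and lay down a matrix of type II collagen and aggrecan, and fibroblasts and stromal cells of the marrow supply factors that blood progenitors need.

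The marker-negative array exceeded both others by 4-fold or more in 205 genes, 1.62% of the measured genes, and 59 were at least 4-fold lower than on both, 0.467%. Against ALCAM+ alone 338 genes (2.67%) were higher and 254 (2.01%) lower, and against Sca-1+ alone 595 (4.71%) were higher and 690 (5.46%) lower. Of the 205 higher genes, 28 belonged to lists of red cell genes and 68 to lists of cell division genes, while 99 belonged to none of the 40 gene lists. Of all 12643 measured genes, 75 belonged to the red cell lists and 150 to the division lists. Of the 59 lower genes 3 were in any list, as were 748 of the 18193 named genes, so this count does not set them apart. Within the higher group, 23 genes were at least 16-fold apart, 61 were above the floor on all 3 arrays and 82 had a lower bound only. Among the lower genes 1 was at least 16-fold apart and 46 were above the floor on all 3 arrays. Where a higher gene had another probe set above the floor (89 genes), all its others pointed the same way for 83 genes and some other also passed 4-fold for 37. Another probe set counted if it was above the floor on any array. One above it only on the marker-negative array pointed the same way by construction, here and wherever other probe sets of higher genes are mentioned. Of the 59 lower genes 33 had such a probe set: all pointed the same way for 22 and some other passed 4-fold for 14. With every probe set of a gene averaged, 118 genes were higher and 30 lower, and with the floor raised to the 75th percentile of all signals (433.85) the counts were 49 and 17. Just inside the size rule lay Stard10 (4.01-fold higher) and Pcdh18 (4.01-fold lower), and just outside Trim59 (3.99-fold higher) and Cdk14 (3.99-fold lower).

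**Figure D1:**
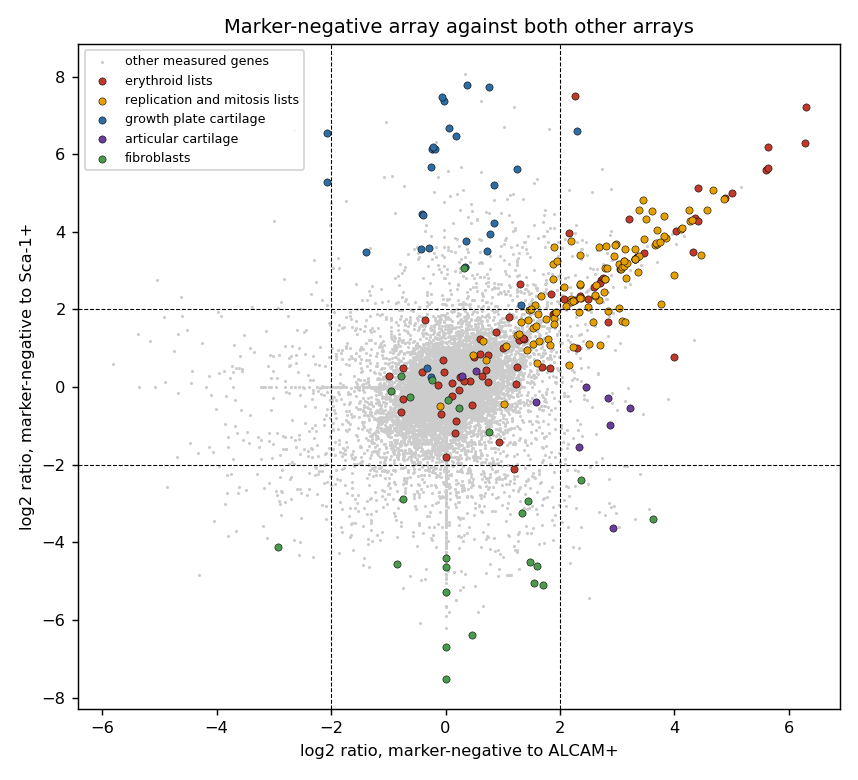
Log2 ratio of the marker-negative array to ALCAM+ (horizontal) and to Sca-1+ (vertical) for the 12643 measured genes, values raised to the floor first, with members of 5 sets of gene lists coloured; dashed lines mark 4-fold. Both axes share the marker-negative array, and points lined up at 0 are genes at or below the floor on both arrays of that ratio. Beyond both lines at the upper right lie 28 of 75 measured red cell genes and 67 of 107 replication and mitosis genes. Growth plate cartilage genes lie high on the vertical axis near 0 on the horizontal, and fibroblast genes mostly lie below 0 on the vertical axis.

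The trimmed mean signal was 500 on every array, and 51.4%, 49.7% and 48.9% of probe sets lay above the floor on the marker-negative, ALCAM+ and Sca-1+ arrays. The 3' to 5' signal ratio, a sign of RNA integrity and amplification, ranged from 2.55 to 2.77 for Actb and from 3.75 to 3.96 for Gapdh. Alcam gave 36.3 on the marker-negative array, 267.7 on ALCAM+ and 41.1 on Sca-1+, in the order the labels give. The CD31 gene Pecam1 was below the floor on all 3 arrays. Ptprc, which encodes CD45, gave 159.4 on the marker-negative array, 11.6 on ALCAM+ and 163.2 on Sca-1+, so that it was above the floor in both ALCAM- populations. The genes for Sca-1 and for glycophorin A, with which the Ter119 antigen is associated, were not analysed here.

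The transcription factors of red cell development were set apart as a group. Of 14 measured members of their list, all 14 had their highest signal on the marker-negative array and 10 were at least 4-fold higher than on both others, against the 1.62% of all measured genes. With the floor at 433.85 only Klf1 passed. Their median log2 ratio was 2.88 to ALCAM+ and 2.72 to Sca-1+, where the median of all measured genes was 0.03 and 0.00. In bulk RNA a larger share of such cells and more RNA per cell cannot be told apart.

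Klf1, the Krüppel-like factor of red cell precursors, gave 3649 on the marker-negative array and 58.6 on each of the other arrays. Both of those lie below the floor, so the difference was at least 48.4-fold. Gata1, the master factor of red cell and platelet precursors, gave 1556 on the marker-negative array, 22.9 on ALCAM+ and 51.1 on Sca-1+, at least 20.6-fold. It too was above the floor only in the marker-negative cells. Ikzf1, encoding the blood cell factor Ikaros, gave 1598, 19.7 and 82.4 in the same order of arrays, a 19.4-fold difference from Sca-1+. Tal1, a partner of GATA1 in the blood cell complex, gave 831, 39.5 and 15.5, at least 11-fold. Gfi1b, a repressor needed for red cell and platelet development, gave 749.5, 5.9 and 34.0, at least 9.94-fold. None of these 5 genes exceeded 82.4 on either marker-positive array. Epor, the receptor for erythropoietin, gave 447 against 79.8 on ALCAM+ and 93.5 on Sca-1+ (4.79-fold). Trim10 was at least 8.24-fold higher, Bcl11a, a repressor of embryonic and fetal globin genes, 6.59-fold, Myb at least 6.47-fold and the GATA1 cofactor gene Zfpm1 4.20-fold. With all probe sets of a gene averaged, Bcl11a, Myb and Zfpm1 no longer passed 4-fold.

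The 4 remaining factors were highest on the marker-negative array without passing the size rule. Nfe2, a regulator of globin genes, gave 276 there and lay below the floor on both other arrays, so its bound was 3.66-fold. Sox6 gave 2348 against 948 on ALCAM+ and 374 on Sca-1+, so cells of all 3 populations had signal well above the floor. Lmo2 gave 1196, 35.8 and 702: it separated the marker-negative cells from ALCAM+ and not from Sca-1+. Ldb1, a bridging factor present in many tissues, differed least, at 702 against 522.5 and 631.

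The 250 bases upstream of the annotated starts of higher red cell genes often held the letters that GATA factors bind. Searched on both strands, AGATAA or TGATAA was present in 13 of 27 upstream windows (48.1%) of the 28 higher red cell genes, 22 of which had a window in the RefSeq table. It was present in 9.12% of the windows of measured genes and 16.6% of all windows in that table. The genes holding it were Klf1, Tal1, Gfi1b, Epor, Trim10, Ermap, Rhag, Rhd, Kel, Icam4, Epb42, Hemgn and Tfr2. The CACCC-type letters that KLF1-like factors bind, searched as CCNCNCCC, were about as frequent in the red cell windows (66.7%) as in those of measured genes (63.3%). A match shows that the letters are there, not that a factor binds. The windows of Klf1, Hemgn and Epor are shown because these genes span the group: a factor, a nuclear protein gene of red cell precursors and the hormone receptor. Coordinates are of assembly GRCm38.p6, each window is read 5′ to 3′ along the gene, and capitals mark the GATA letters, on either strand. Klf1 lies on the forward strand (chr8:84901732-84901981), and Hemgn (chr4:46404184-46404433) and Epor (chr9:21963577-21963826) on the reverse strand.
Klf1: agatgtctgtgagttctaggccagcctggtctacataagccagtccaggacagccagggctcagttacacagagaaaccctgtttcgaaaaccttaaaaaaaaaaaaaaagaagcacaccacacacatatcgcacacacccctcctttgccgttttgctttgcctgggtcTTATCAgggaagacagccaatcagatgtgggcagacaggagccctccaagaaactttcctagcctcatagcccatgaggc
Hemgn: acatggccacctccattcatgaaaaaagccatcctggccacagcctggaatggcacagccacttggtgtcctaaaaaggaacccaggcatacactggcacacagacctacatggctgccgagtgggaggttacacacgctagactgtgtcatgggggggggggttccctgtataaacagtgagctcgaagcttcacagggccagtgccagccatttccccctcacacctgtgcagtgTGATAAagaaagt
Epor: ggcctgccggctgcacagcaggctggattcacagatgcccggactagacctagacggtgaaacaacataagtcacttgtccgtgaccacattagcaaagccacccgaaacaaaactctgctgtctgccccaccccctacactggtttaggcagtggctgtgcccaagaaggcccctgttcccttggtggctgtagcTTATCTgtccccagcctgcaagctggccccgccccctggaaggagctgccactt
The match began 80 bases before the start of Klf1, 13 before that of Hemgn and 54 before that of Epor.

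Membrane and skeleton genes of the red cell followed. Of 18 measured members, 11 were at least 4-fold higher than on both other arrays (4 with the floor at 433.85) and none lower. Over all measured genes the shares were 1.62% higher and 0.467% lower. The list's medians were 2.71 to ALCAM+ and 2.47 to Sca-1+. Ermap, an erythroid membrane protein, gave 3760 on the marker-negative array against 56.7 on ALCAM+ and 38.5 on Sca-1+, at least 49.9-fold. Slc4a1, which encodes band 3, the anion exchanger of the red cell, gave 2414, 52.9 and 13.8, at least 32.0-fold. Tspan33, a tetraspanin of red cell precursors, gave 2227, 60.8 and 25.8, at least 29.5-fold. These 3 genes were above the floor only in the marker-negative cells, and the other probe sets of Slc4a1 (1) and Tspan33 (3) pointed the same way. Cldn13 gave 2644.5, 124.7 and 8.2, so ALCAM+ cells had a signal above the floor, 21.2-fold below that of the marker-negative cells.

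The blood group genes were among those set apart. Rhag, the Rh-associated glycoprotein, gave 1231, 30 and 15.2 (at least 16.3-fold), and its partner Rhd gave 1531, 167 and 18 (9.18-fold). The Kell antigen gene Kel was at least 10.1-fold higher, Slc14a1, the urea transporter of the Kidd group, at least 10-fold and Icam4, the LW antigen, at least 6.01-fold. Among skeleton genes Add2, a β-adducin, was at least 5.11-fold higher, with 2 of its 3 other probe sets pointing the same way, and Epb42, protein 4.2, at least 4.77-fold. With all probe sets of a gene averaged, neither Add2 nor Epb42 passed 4-fold. Ank1, the ankyrin that ties band 3 to spectrin, gave 762, 107 and 238, which is 3.20-fold, and the spectrin gene Sptb gave 195, 42.0 and 81.7, 2.38-fold. Not all members followed. The water channel gene Aqp1 gave 3409 on the marker-negative array and 9054 on Sca-1+, glycophorin C (Gypc) gave 709 and 1597, and tropomodulin Tmod1 gave 253.5 against 269 on ALCAM+ and 409 on Sca-1+. These are also expressed outside red cells. Over the 19 genes of the list with a named probe set, the summed signal was 22386 on the marker-negative array, 3761 on ALCAM+ and 12009 on Sca-1+, where Aqp1 made up most of the Sca-1+ sum.

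**Figure D2:**
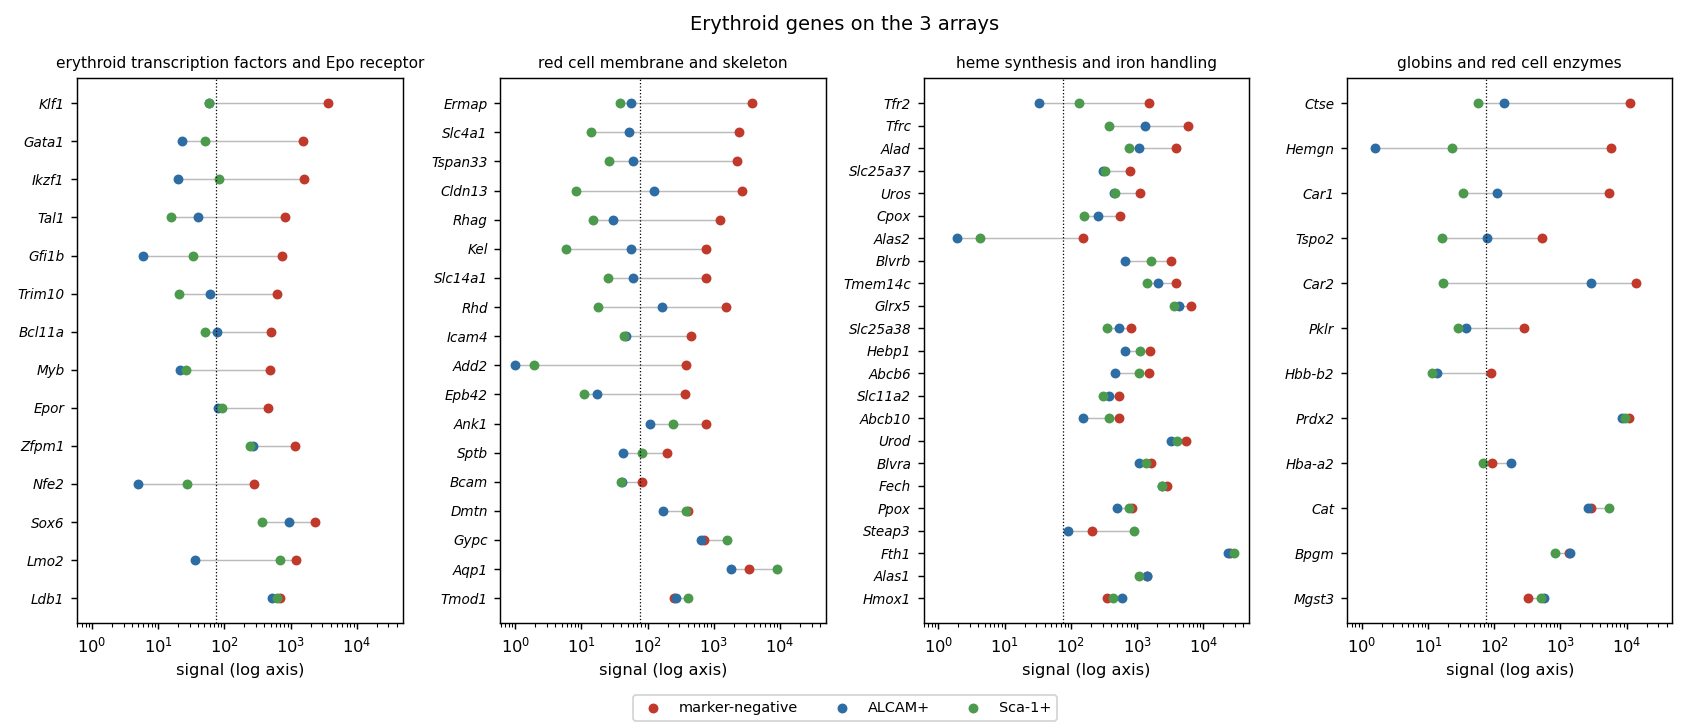
Signals (log axis) of the measured members of 4 red cell gene lists on the marker-negative, ALCAM+ and Sca-1+ arrays, 1 array each; the dotted line is the floor of 75.4. Transcription factors and membrane genes are mostly above the floor on the marker-negative array only (Klf1, 3649 against 58.6 and 58.6), while most heme synthesis genes are well above it on all 3. Hba-a2 gives 91.6 on the marker-negative array, 182 on ALCAM+ and 68.0 on Sca-1+.

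Heme synthesis and iron handling was less set apart. Of 23 measured members 19 were highest on the marker-negative array, 8 of them at least 2-fold (5.18% of all measured genes were), but only 2 passed 4-fold, and both are transferrin receptors. Tfr2, a receptor of iron-loaded transferrin that also associates with the erythropoietin receptor, gave 1502, 33.4 on ALCAM+ and 133 on Sca-1+ (11.3-fold). Tfrc, the main iron uptake receptor of red cell precursors and of dividing cells, gave 5818, 1305 and 373 (4.46-fold). With its probe sets averaged Tfrc no longer passed 4-fold. Among the enzymes, Alad, the second of the pathway, gave 3885, 1079 and 742, 3.60-fold. Uros (2.34-fold), Cpox (2.16-fold) and the mitochondrial iron importer Slc25a37 (2.39-fold) were also highest on the marker-negative array. Alas2, the first and rate-limiting enzyme in red cells, gave only 151.8, but it was listed at 1.9 and 4.2 on the other arrays; against the floor this is at least 2.01-fold. Its counterpart in other tissues, Alas1, gave 1400.2, 1424 and 1077, and ferrochelatase (Fech), the last enzyme, gave 2852, 2374 and 2391. Hmox1, which breaks heme down, was lowest on the marker-negative array, 349.8 against 586 and 432. The list's medians were 1.01 to ALCAM+ and 0.77 to Sca-1+.

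The globin probe sets that name a single gene gave low signals on the marker-negative array. Hbb-b2, an adult β-globin gene, gave 89.7 on the marker-negative array and 13.9 and 11.4 on the others. Hba-a2, an adult α-globin gene, gave 91.6, which lay below the 182 of ALCAM+ and above the 68.0 of Sca-1+. Hba-a1 and the embryonic genes Hba-x, Hbb-bh1 and Hbb-y were below the floor on every array, and Hbb-b1 was not analysed here. The near-identical globin copies share probes, so their values are uncertain. Probe sets naming several genes were left out, so any globin signal on them was not read.

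Beside these low globin signals, read on single-gene probe sets only, stood 5 genes of the same list with large differences. Ctse, the protease cathepsin E, gave 11115 on the marker-negative array, 142 on ALCAM+ and 56.6 on Sca-1+, 78.5-fold. Hemgn, the nuclear protein hemogen of blood cells, gave 5892 and was listed at 1.6 and 22.9 on the others, at least 78.1-fold. Car1, the red cell carbonic anhydrase I, gave 5491, 110.0 and 34.2, 49.9-fold. Tspo2, a transporter of red cell precursors, gave 527, 77.9 and 16, 6.76-fold. Car2, carbonic anhydrase II, gave 13751 and 2879 on ALCAM+, 4.78-fold, and was below the floor on Sca-1+, so 2 of the populations expressed it. Car2 is also known from osteoclasts and other cells. Pklr, the pyruvate kinase of red cells and liver, lay at 283.5 and below the floor elsewhere, a bound of 3.76-fold. The antioxidant genes Prdx2 and Cat and the mutase gene Bpgm did not separate the arrays: Prdx2 gave 10696, 8598 and 9565.

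Of the genes of late red cell maturation and survival (8 measured) none passed 4-fold in any direction. Bcl2l1, the survival gene induced by erythropoietin in late precursors, gave 1019, 1354 and 784, and Cish, a target of STAT5, gave 559.8, 473.5 and 593. Alox15, used to clear mitochondria late in maturation, was below the floor on all 3 arrays. Over all 5 red cell lists, 28 of 75 measured genes passed 4-fold upward against both others and none downward. Of all measured genes 1.62% passed upward and 0.467% downward. Outside the lists, and chosen after their values were seen, were Slc40a1, the iron exporter ferroportin (1349, 269 and 204, 5.02-fold), and Mfsd2b, the sphingosine-1-phosphate exporter of red cells and platelets (319, 10.8 and 21.9, at least 4.23-fold). With all probe sets of a gene averaged, neither Slc40a1 nor Mfsd2b passed 4-fold.

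All 48 measured DNA replication genes were highest on the marker-negative array. Of them 44 passed 2-fold and 25 passed 4-fold against both others (1.62% of all measured genes did), or 10 with the floor at 433.85, with medians of 2.50 to ALCAM+ and 2.12 to Sca-1+. Unlike most of the red cell factors, these genes usually had signal above the floor on the other arrays as well, 38 of 49 on ALCAM+ and 42 on Sca-1+. Mcm5, a subunit of the MCM helicase, gave 6513 on the marker-negative array, 293.5 on ALCAM+ and 611 on Sca-1+, 10.7-fold above the nearer. Mcm3 gave 4011.5, 254 and 539 (7.44-fold), and its 4 other probe sets pointed the same way. Mcm7 gave 14747, 2877 and 2377 (5.13-fold). The remaining subunits were also highest on the marker-negative array, at smaller folds: Mcm2 3.45-fold, Mcm4 2.95-fold and Mcm6 2.71-fold.

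Among genes of nucleotide supply and origin licensing, Rrm2, the ribonucleotide reductase subunit made in S phase, gave 6296, 362.5 and 374, 16.8-fold, and both its other probe sets passed 4-fold too. Tk1, thymidine kinase, gave 1457 and was below the floor on both other arrays, at least 19.3-fold. E2f8, a repressor that acts late in S phase, was at least 14.4-fold higher, Brca1 9.96-fold, Clspn, a checkpoint mediator, at least 9.91-fold, Gmnn, the licensing inhibitor geminin, 8.83-fold, and the cyclin E gene Ccne1 8.19-fold. The smallest differences were those of Slbp (1.39-fold), E2f1 (1.48-fold) and the polymerase gene Pold1 (1.54-fold), while the clamp gene Pcna gave 11024, 4626 and 4365, 2.38-fold.

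Mitosis genes passed 4-fold against both other arrays in 42 of 59 measured members (1.62% of all measured genes did), or in 11 with the floor at 433.85, with 57 highest on the marker-negative array and medians of 2.82 to ALCAM+ and 3.16 to Sca-1+. Mki67, the proliferation antigen Ki-67, gave 6858 on the marker-negative array, 269 on ALCAM+ and 204 on Sca-1+, 25.5-fold. Ccna2, the cyclin of S and G2 phase, gave 2187.5 and was just below the floor on the other arrays (73.7 and 69.8), at least 29.0-fold. Cdca8, a subunit of the chromosomal passenger complex, gave 3813, 160.1 and 162, 23.5-fold, and both its other probe sets passed 4-fold. The other 2 populations lay close together in each of these genes.

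Pbk, a mitotic kinase, was 19.7-fold higher, Ccnb2, a mitotic cyclin, 19.1-fold, the condensin gene Ncaph 17.3-fold, Prc1, which bundles spindle microtubules, 14.1-fold and Stmn1, a microtubule regulator, 14.0-fold. Cdk1, the kinase that drives entry into mitosis, gave 1794, 172 and 7.5, 10.4-fold. Only 2 measured members were not highest on the marker-negative array. Pttg1, the securin gene, gave 6830 against 7311 on ALCAM+ and 9529 on Sca-1+, and Cdc25b gave 370.0, 182 and 502. With all probe sets of a gene averaged, 22 mitosis and 17 replication genes passed 4-fold, and E2f8, Brca1 and Clspn no longer did.

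Genes of chromosome attachment and of repair were grouped after their values were seen, so their counts only describe them. Of 35 measured kinetochore and centromere genes, 15 were higher (1.62% of all measured genes were) and 32 highest on the marker-negative array (4192 of all 12643 were): Kntc1 gave 841, 50.4 and 30.8 (at least 11.1-fold) and Zwilch 1025, 93.0 and 71.6 (11-fold), both parts of the complex that recruits dynein to kinetochores. Cenpa, the centromeric histone, gave 1949, 160.5 and 84.2 (12.1-fold), but its other probe set did not point the same way. Of 24 measured genes of recombination and repair 10 were higher, with Recql4, a DNA helicase, at least 6.52-fold and Exo1, an exonuclease, at least 5.54-fold. With all probe sets of a gene averaged, Cenpa and Exo1 no longer passed 4-fold. Cdca5, the cohesin protector sororin and part of neither group, gave 2684.5, 53.8 and 43.1, at least 35.6-fold.

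The upstream windows of the division genes were searched for letters known from promoters of cell cycle genes. CCAAT, the letters bound by NF-Y, was present in 82.9% of 35 windows of the higher mitosis genes (33 of the 42 genes had a window), in 53.8% of 26 windows of the higher replication genes (20 of 25), and in 34.8% of windows of measured genes. The CHR letters, TTTGAA or TTCGAA, were present in 40.0% of the mitosis windows and 12.3% of those of measured genes. E2F letters (TTTCCCGC, TTTGGCGC or TTTCGCGC) were present in 15.4% of the replication windows, 5.71% of the mitosis windows and 2.72% of those of measured genes. Over all windows in the table the shares were 33.8%, 17.1% and 1.53% for CCAAT, CHR and E2F. In the 27 red cell windows they were 37.0%, 14.8% and 3.70%. GATA letters were present in 3 of the 35 mitosis windows and 1 of the 26 replication windows. Both strands were searched, and a stretch such as that of Mcm5 can match E2F on both. The windows of Mki67, Cdca8 and Mcm5 are shown as examples of a CCAAT and CHR window, of 3 CCAAT letters in series and of E2F with CCAAT, with those letters in capitals. Mki67 (chr7:135716380-135716629) and Cdca8 (chr4:124936918-124937167) lie on the reverse strand and Mcm5 (chr8:75109259-75109508) on the forward strand.
Mki67: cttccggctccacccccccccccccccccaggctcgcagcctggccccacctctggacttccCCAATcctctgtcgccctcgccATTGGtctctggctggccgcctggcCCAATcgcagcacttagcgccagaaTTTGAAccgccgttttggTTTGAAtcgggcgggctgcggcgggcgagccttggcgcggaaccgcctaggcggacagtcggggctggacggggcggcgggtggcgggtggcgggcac
Cdca8: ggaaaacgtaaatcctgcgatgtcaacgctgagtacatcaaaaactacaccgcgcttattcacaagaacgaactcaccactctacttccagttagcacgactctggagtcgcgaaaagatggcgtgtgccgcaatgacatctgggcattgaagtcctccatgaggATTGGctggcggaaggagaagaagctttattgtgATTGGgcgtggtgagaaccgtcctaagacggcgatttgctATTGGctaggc
Mcm5: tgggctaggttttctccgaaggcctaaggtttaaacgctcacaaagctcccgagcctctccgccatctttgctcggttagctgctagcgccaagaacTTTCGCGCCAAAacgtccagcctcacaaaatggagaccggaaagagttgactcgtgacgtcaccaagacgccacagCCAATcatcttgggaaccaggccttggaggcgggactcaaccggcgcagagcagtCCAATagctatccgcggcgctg

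The 2 other division lists had few genes past 4-fold, and so did the measured genes as a whole (1.62% higher, 0.467% lower). Of 22 measured D-type cyclins, their kinases, inhibitors and related genes, Cdk6 alone passed 4-fold against both others, at 6569, 1554 and 465 (4.23-fold). With its probe sets averaged Cdk6 no longer passed 4-fold. Ccnd1 gave 1151, 395 and 642, and the inhibitor gene Cdkn1a gave 15060.3, 22475 and 14456. Against a single array, the inhibitor gene Cdkn1c (9335, 12216 and 1325) was 7.05-fold above Sca-1+ and Rbl1, a relative of the retinoblastoma gene (780.0, 180.0 and 306), 4.33-fold above ALCAM+. Ccng2, an inhibitory cyclin of resting cells, was lowest on the marker-negative array at 789 against 2046.5 and 1701 (2.16-fold). Of 21 genes of ribosome biogenesis and nucleotide synthesis none passed 4-fold. Upward, 2 passed 2-fold (Dkc1, 2.74-fold, and Polr1b, 2.14-fold), where 5.18% of all measured genes did. Myc gave 4914, 4406 and 5131.

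**Figure D3:**
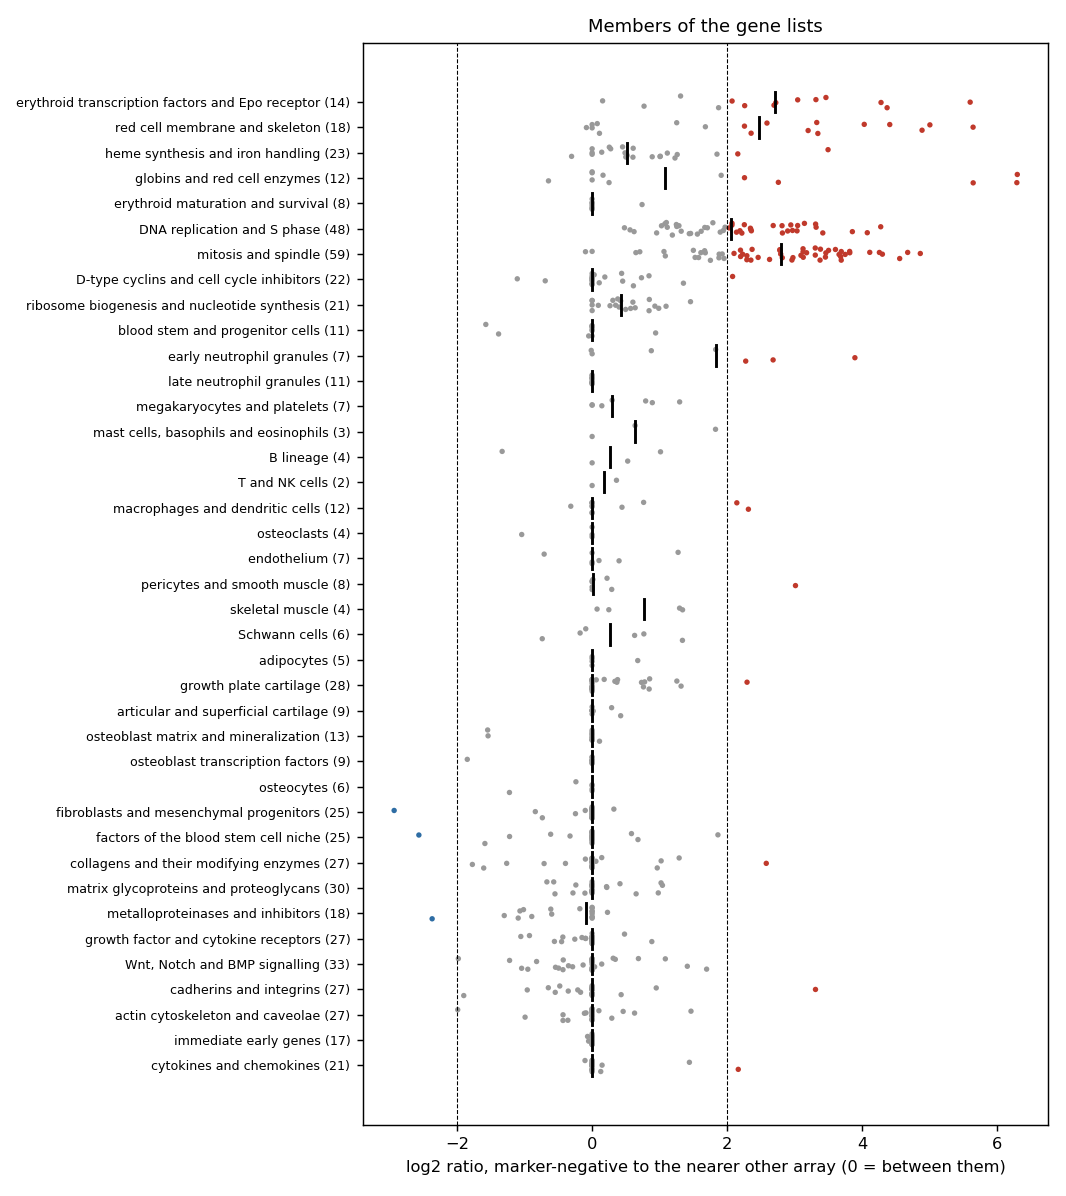
Log2 ratio of the marker-negative array to the nearer other array for the measured members of 39 gene lists (number in parentheses), set to 0 where the marker-negative value lies between the others. Red points are at least 4-fold higher and blue points at least 4-fold lower than both, black bars are medians and dashed lines mark 4-fold. The medians of the transcription factor, membrane, replication and mitosis lists lie beyond 4-fold (2.71, 2.47, 2.05 and 2.79), and no other list's median does.

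Other blood cell genes were read beside the red cell genes, since the sort removed CD45+ cells. Of 7 measured genes of early neutrophil granules 3 were higher (1.62% of all measured genes were). The myeloperoxidase gene Mpo gave 1355, 25.2 on ALCAM+ and 91.4 on Sca-1+ (14.8-fold). Elane, neutrophil elastase, gave 483.0, 37.3 and 63.5 (at least 6.41-fold) and Prtn3, proteinase 3, gave 530.5, 22.3 and 109.7 (4.84-fold). Ctsg gave 268 and was below the floor elsewhere. The late granule genes had another order: none of 11 was higher than on both others, and S100a8 gave 576, 77.3 and 4900.5. Of the 11, 7 were at least 4-fold lower than on Sca-1+ (5.46% of all measured genes were). The summed signal of the early genes was 2895, 341 and 445, and that of the late genes 1386, 467 and 18153.

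Among genes that most white cells share, a group made after the values were seen, 5 of 17 measured were higher, beside 1.62% of all measured genes. Fermt3, the blood cell kindlin, gave 2162, 35.9 and 43.1 (at least 28.7-fold), with all 3 other probe sets pointing the same way. Spn, the CD43 gene, was at least 6.97-fold higher, Lyl1, a relative of TAL1, at least 4.93-fold, Btk at least 4.59-fold and the adaptor gene Fyb 4.56-fold. Their sums were 7129, 2196 and 2126. Of MHC class II genes, also grouped afterwards, H2-Aa gave 375, 27.9 and 42.5 (at least 4.97-fold), H2-Ab1 542, 123 and 58.9 (4.41-fold) and H2-DMa 1007, 175 and 120.4 (5.77-fold), while the invariant chain gene Cd74 gave 128 and was below the floor elsewhere. The integrin α4 gene Itga4, of many blood cells, gave 746, 29.6 and 10.8 (at least 9.90-fold). It was the single measured integrin or cadherin past 4-fold against both. The other probe sets of H2-Aa, H2-Ab1 and H2-DMa above the floor pointed the same way, but none passed 2-fold. With all probe sets of a gene averaged, H2-Aa, H2-Ab1, H2-DMa, Spn, Fyb and Itga4 no longer passed 4-fold. The same genes also failed to pass with the raised floor described above.

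Marker lists of mature lineages were mixed on the marker-negative array, with some members below the floor and others above it. The T cell genes Cd3d, Cd3e and Cd3g gave 3.1, 9.3 and 13, the B cell genes Cd79a, Cd79b and Ms4a1 37.2, 42.3 and 32.2, and the macrophage genes Adgre1, C1qa and Marco 48.1, 3.0 and 4.8, all below the floor. Above it lay the T cell gene Cd8a at 184, the B cell genes Pou2af1 at 152, Ighm at 133 and Pax5 at 109, and the macrophage genes Lyz1 at 543.5, Cd68 at 144 and Csf1r at 133.5. Of 19 macrophage and dendritic genes 11 were above the floor there. Of 12 mast cell, basophil and eosinophil genes, Prg2, a granule protein gene of eosinophils, gave 267.5 with Epx at 117 and all others below the floor. Of 7 measured platelet lineage genes none passed 4-fold against both others (1.62% of all measured genes were higher), with Pf4 at 185 and Gp9 below the floor. The progenitor genes Kit (228.5, 119 and 47.7) and Gata2 (213, 279.9 and 112) gave low signals, and Cd34 gave 427 against 18453 on Sca-1+. Summed over the whole list, B lineage genes gave 924 on the marker-negative array, 701 on ALCAM+ and 3104 on Sca-1+, T and NK genes 406, 440.0 and 402, macrophage and dendritic genes 3231, 1809 and 5337, and platelet lineage genes 2528, 2294 and 2520.5. Of 16 endothelial genes 5 were above the floor on the marker-negative array, and Cdh5 and Tie1 were not. The part of such cells in the differences above was not tested.

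**Figure D4:**
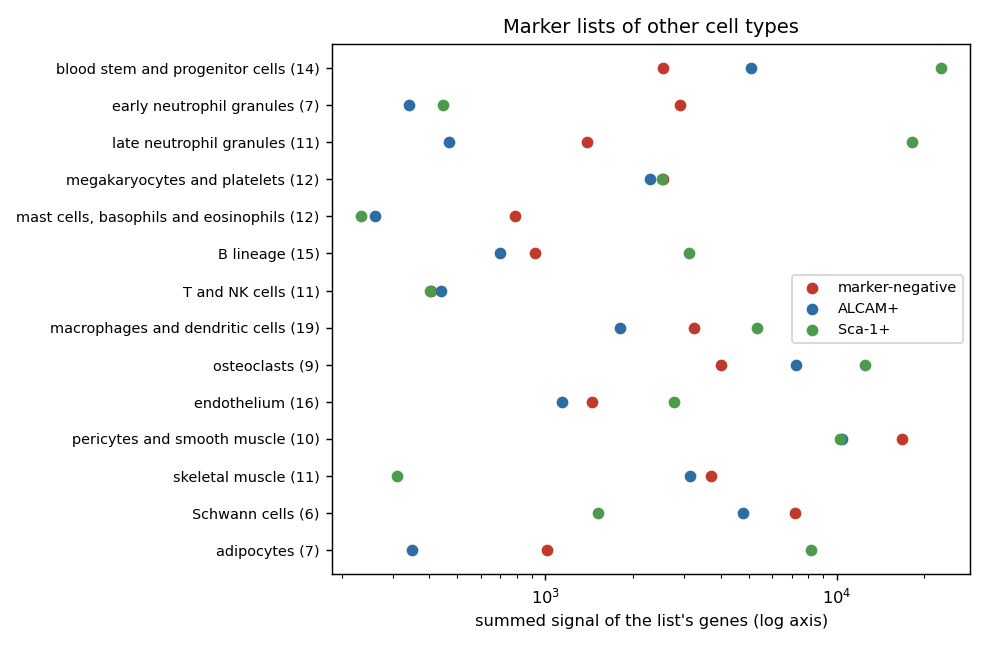
Summed signal (log axis) of all named members of 14 marker lists of other blood and stromal cell types (number in parentheses) on the 3 arrays. Early neutrophil genes are highest on the marker-negative array (2895 against 341 and 445), while late neutrophil, fat cell and progenitor lists are highest on Sca-1+.

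The marker-negative cells also carried a cartilage signal. Of 28 measured growth plate genes all were above the floor, 26 were at least 4-fold higher than on Sca-1+ and 1 was at least 4-fold higher than on ALCAM+, where 4.71% and 2.67% of all measured genes were. The median log2 ratio was 5.24 to Sca-1+ and -0.05 to ALCAM+. Col2a1, the type II collagen gene, gave 24959 on the marker-negative array, 33310 on ALCAM+ and 1125 on Sca-1+. Acan, aggrecan, gave 25524, 31219 and 2128.5, and Col9a1, type IX collagen, 35205, 41318 and 502. Sox9, the master factor of cartilage, gave 4187, 3249 and 306. Both ALCAM- Sca-1- and ALCAM+ cells thus lay together and far from Sca-1+ in these genes.

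Within the growth plate list the members fell on both sides of ALCAM+. Ucma, made by cartilage cells of the upper growth plate, gave 13853, 2825.5 and 143, so it was 4.90-fold above ALCAM+ and the only gene of the list among the 205 higher genes. Sox5 (2.49-fold above ALCAM+) and Scrg1 (2.39-fold) came next. Col10a1, the collagen of enlarged, late cartilage cells, gave 7099.7 against 29730 on ALCAM+, 4.19-fold lower, and Matn1, a matrilin, gave 2933 against 12269.5, 4.18-fold lower. Ihh, the hedgehog ligand of early enlarging cells, gave 838, 2204 and 64.1. Genes of articular and superficial cartilage had the reverse partner: 6 of 9 measured were at least 4-fold higher than on ALCAM+ (2.67% of all measured genes were). Against Sca-1+ none was at least 4-fold higher and 1 was at least 4-fold lower (5.46% of all measured genes were lower). Prg4, the joint lubricant lubricin, gave 18212, 1949.8 and 26651. Cilp gave 16447, 2298 and 19978, and Clu, clusterin, 22015, 3997 and 21774. In Prg4, Cilp and Clu the marker-negative cells lay nearer to Sca-1+ than to ALCAM+.

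Genes of bone-forming cells were seldom highest on the marker-negative array. Of 13 measured genes of osteoblast matrix and mineralization 1 was, 4 were at least 4-fold lower than on ALCAM+ (2.01% of all measured genes were), and 4 at least 4-fold higher than on Sca-1+. Col22a1 gave 740.5, 12974 and 2163.5, and Ifitm5 319, 7744 and 90.2. Ibsp, bone sialoprotein, gave 18264, 37633 and 161, and Alpl, the phosphatase of mineralizing cells, 12905, 24709.8 and 299, so that they were 2.06-fold and 1.91-fold below ALCAM+. Of 6 measured osteocyte genes 5 were at least 4-fold lower than on ALCAM+. Dmp1 gave 115, 6431 and 11.8, 56.1-fold lower, and Phex 1165, 16703 and 1376. Of the immediate early genes, the rapid response genes of stimulated or stressed cells, 0 of 17 passed 4-fold in any direction, with Fos at 25828, 33114 and 21599.7. Of all measured genes 1.62% were higher and 0.467% lower than on both other arrays, so 0 of 17 does not set these genes apart.

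Fibroblast and progenitor genes lay far below Sca-1+. Of 25 measured, 17 were at least 4-fold lower than on Sca-1+ (5.46% of all measured genes were) and 1 lower than on ALCAM+. Pi16 gave 17.3, 9.7 and 13721, Dpt, dermatopontin, 746, 254.5 and 24429, and Cxcl12, the chemokine that holds blood stem cells in the marrow and a member of the niche list, 778, 319.7 and 20123. Of 30 measured matrix glycoproteins and proteoglycans 11 were at least 4-fold lower than on Sca-1+ and 5 at least 4-fold higher. Dcn, decorin, a fibroblast list member made by many mesenchymal cells, gave 26807, 41199 and 31805. In 35 genes (0.277%) the marker-negative cells were at least 4-fold above ALCAM+ and at least 4-fold below Sca-1+. Among them, named after their values were seen, were Tnxb, a tenascin (1951, 159 and 20505), the inhibitor heavy chain gene Itih5 (1398, 171 and 16859) and the proteoglycan gene Vcan (1539, 196 and 14580). In 18 genes (0.142%) the order was the reverse, among them Car3, a carbonic anhydrase (7384, 46407 and 51.9), and Col13a1 (845, 5952 and 123).

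Some of the 205 higher genes are known from skeletal or contractile cells rather than blood, and were picked out after their values were seen, other than the list members. Col12a1, a collagen on fibril surfaces, gave 9329, 1232 and 1562, 5.97-fold above Sca-1+. C1qtnf3, a secreted protein known from cartilage, gave 11661, 1544.5 and 1211, 7.55-fold. Tagln, the smooth muscle protein transgelin, gave 1768, 189 and 219 (8.06-fold), whereas the smooth muscle actin gene Acta2 gave 3532, 971 and 3821, and Myh11 and Cnn1, which define smooth muscle, 92.2 and 44.9. Car12, a membrane-bound carbonic anhydrase, gave 9357, 2106 and 277.5 (4.44-fold), and the fatty acid desaturase gene Fads2 6174, 1501 and 1190.4 (4.11-fold). With all probe sets of a gene averaged, Col12a1 and Car12 no longer passed 4-fold. Of the cytokines Csf2, which encodes the growth factor GM-CSF, was at least 4.48-fold higher, at 338 with both others below the floor.

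Among the genes lower on the marker-negative array than on both others, only Pdgfra, Kitl and Mmp23 were members of the 40 lists, each of a different list. Slit3, a secreted guidance cue, gave 19.1 on the marker-negative array, 1496 on ALCAM+ and 2175 on Sca-1+, at least 19.8-fold lower, and was the only gene past 16-fold. Nnmt, a methyltransferase of nicotinamide, gave 225, 3138 and 3202 (13.9-fold lower). Adgrd1, an adhesion receptor, gave 236, 2148 and 2820.4 (9.09-fold). Both marker-positive populations lay close together in these genes, as they did in Ptprg, a receptor phosphatase (149.6, 1106 and 1206, 7.39-fold, with all 3 other probe sets pointing the same way).

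Pdgfra, the PDGF receptor of mesenchymal progenitors, gave 671.5, 5122 and 11647 (7.63-fold lower), with both other probe sets pointing the same way. Kitl, which encodes stem cell factor, the ligand that blood progenitors and red cell precursors need, gave 71.1, 446 and 1513 (at least 5.92-fold), and 0 of the other 24 niche factors measured passed 4-fold downward against both. Mmp23, a metalloproteinase, gave 488, 3217 and 2522 (5.16-fold). Tmem119, a membrane protein of bone-forming cells, gave 1039.8, 16174 and 4283 (4.12-fold).

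Of the other lower genes, Sh3pxd2b, a podosome adaptor, was 6.66-fold lower, Ano6, a lipid scramblase, 6.45-fold, Abcc9, a subunit of potassium channels, 6.25-fold, Zeb2, a repressor of epithelial genes, 6.06-fold, and the kinase gene Fyn 5.54-fold. Pde5a, a cyclic GMP phosphodiesterase, was at least 8.66-fold lower and Eya4 8.07-fold. Of 7 measured Slit, Robo and srGAP genes, grouped after the values were seen, 3 were lower: Slit3, Srgap1 (62.0, 562.5 and 375, at least 4.98-fold) and Srgap3 (196, 1275 and 985, 5.02-fold), while Robo1 gave 346, 533 and 504. For Pde5a and 4 more of the lower genes named here the other probe sets did not all point the same way: Slc6a2, the noradrenaline transporter (146, 1840.1 and 1918, 12.6-fold), Rcan2 (134, 2218 and 1473.5, 11-fold), Mme, the peptidase CD10 (166, 1157 and 1287, 6.96-fold), and Srgap3. With all probe sets of a gene averaged, Sh3pxd2b, Abcc9, Zeb2, Eya4, Srgap1, Srgap3, Slc6a2, Rcan2 and Mme no longer passed 4-fold.

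**Figure D5:**
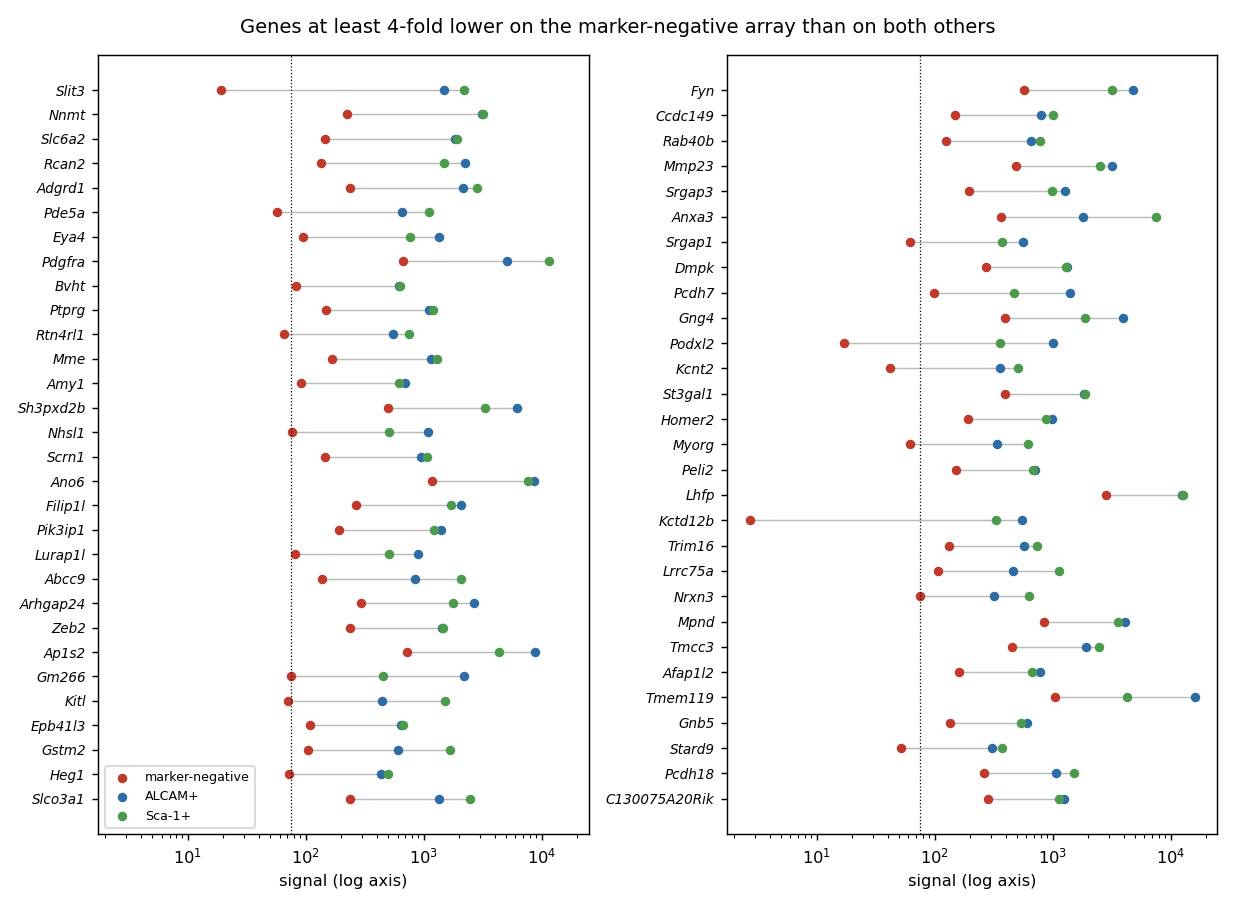
Signals (log axis) on the 3 arrays for the 59 genes at least 4-fold lower on the marker-negative array than on both others, ordered by fold from the top left; the dotted line is the floor of 75.4. Slit3 stands furthest apart (19.1 against 1496 and 2175), and 46 of the 59 genes are above the floor on all 3 arrays.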

How the data were processed

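Total RNA of 3 sorted populations, 1 array each, was labelled by a 2-cycle amplification and hybridised to a mouse expression array, per the labels' protocols. The authors deposited 1 linear signal intensity per probe set (45101 per array), made with MAS5, as the submitters' processing notes state without a version. MAS5 scales each array by 1 factor, so a difference in total RNA between populations is not in the values, and amplification favours 3' ends. No further scaling was applied. Control probe sets (64) were left out. Of the 45037 others 34945 had 1 gene symbol in the platform annotation, 932 several and 9160 none; 34741 Entrez identifiers were found in a RefSeq gene table (assembly GRCm38.p6, from which the promoter windows also come). Of 797 list genes 748 had a named probe set, and the rest were not analysed here.

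The size rule, floor and fold are given with the results. Disagreement between 2 probe sets of a gene had an SD of 0.54 (log2 ratio to ALCAM+) and 0.67 (to Sca-1+) over 4152 genes; the spread between sorts and mice was not measured, and a single array per population limits the precision. The members, lists and alternatives were chosen with earlier results of these data known, so counts over lists describe them and support nothing further; 6 lists were made after the values were seen and are named as such. Named are the sorting genes, the markers Klf1, Gata1, Car1, Mki67 and Mcm5, in each direction the 20 largest folds with both values above the floor and the 15 brightest genes with a bound, list members past 4-fold (the largest 8) with up to 4 that went against them, and defining markers of other cell types; fewer are printed, and genes outside this rule are said to be chosen after their values were seen. The alternatives were 3 other floors, quantile normalization, scaling on 2 sets of control RNAs, and 3 ways to choose or average probe sets. The calling of genes was tested on simulated data with large changes in bright genes only, so genes near the floor or near the size rule were not covered. Python 3.11.15, pandas 2.3.3, numpy 2.4.6 and matplotlib 3.10.9 were used.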

Additional observations from a re-analysis of the deposited data

Results flagged for a closer look

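Probe sets without a single gene symbol entered no gene result. Of 4061 of them above the floor on at least 1 array, 30 (0.739%) were at least 4-fold higher on the marker-negative array than on both others and 6 (0.148%) at least 4-fold lower. A control probe set for the 3' end of the transferrin receptor, left out with the other controls, gave 129.9 on the marker-negative array, 55.0 on ALCAM+ and 10.1 on Sca-1+, the same order as the gene's own probe set. These values come from data outside the comparison and were not tested.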

How the results depend on the processing

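Under 9 alternatives no counted gene reversed its direction, and 33 of 205 higher genes and 7 of 59 lower ones passed 4-fold under every alternative that held them. The floor mattered most. At the 75th percentile of all signals (433.85) 49 genes were higher and 17 lower, with 1 red cell transcription factor, 4 membrane, 10 replication and 11 mitosis genes among the higher, because a raised floor shortens every ratio to a dim array. At the 25th percentile (21.1) 294 genes were higher and 103 lower. The mean of all probe sets of a gene left 118 higher, 30 lower and 22 mitosis genes; the cause was not tested. Quantile normalization gave 201 and 61. Scaling on the poly-A control RNAs moved the median of all genes by 0.55 to ALCAM+ and -0.27 to Sca-1+ and gave 257 and 44, keeping 185 and 34 of the original genes, and scaling on the hybridization controls, with shifts of 0.43 and -0.24, gave 242 and 48. Directions given against 1 array only are therefore relative to the median gene. No paired analysis was possible because each population has 1 array.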
